A study of Mus musculus with 9 samples.

Results

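The genes described here are *Gsg1l*, *Epdr1*, *Adprhl1*, *Def8* and *Hint1*, 5 of the 14011 genes measured in hearts of mouse embryos with and without a Cre-driven deletion of *Ctcf*. They are single genes of little-known function in the heart, chosen by their RNA values, which changed strongly and evenly in homozygous mutants. The values they were selected on are therefore those of homozygotes against controls and against heterozygotes, and for the 5 genes these values are given below as a description, with no test and no numerical limit between a gene inside and a gene outside the choice. Tests are given for genes that the choice did not use, which are the 3 nearest measured genes on each side of each of the 5 and genes related to them by family or function. The 5 genes are also given in heterozygotes against controls. Both groups of that comparison entered the choice, so it is not independent of it.

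CTCF is a zinc-finger protein that binds DNA at many sites, anchors chromatin loops together with cohesin and marks boundaries between regulatory domains, so the genes that lie beside a changed gene are of interest. GSG1L is a claudin-like membrane protein known as an auxiliary subunit of AMPA-type glutamate receptors in brain. EPDR1 belongs to the ependymin-related glycoproteins, which are found in lysosomes and outside cells. ADPRHL1 is a heart-enriched relative of the ADP-ribosylhydrolases. DEF8 binds proteins that position lysosomes. HINT1 is a histidine triad protein that hydrolyses purine phosphoramidates.

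Messenger RNA was sequenced from 9 libraries of hearts dissected at E10.5 (10.5 dpc), each a pool of 6 hearts, with 3 libraries per genotype. Controls carried floxed *Ctcf* without Cre (*Ctcf* fl/fl per the labels, *Ctcf* fl/+ per the methods of the study), heterozygotes were *Ctcf* fl/+; *Nkx2.5-Cre*/+ and homozygotes were *Ctcf* fl/fl; *Nkx2.5-Cre*/+, all from crosses of a mixed strain. *Nkx2.5-Cre* acts in cardiac progenitors and their descendants, so other cells of the heart keep *Ctcf*, and any comparison with controls also sets animals with the driver against animals without it. A lower value can come from fewer cells of a type or from less RNA per cell, which cannot be told apart in pooled hearts.

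Libraries held 4294537 to 11629365 reads in genes, and values are reads scaled by library size and composition, called signal here. The signal of *Ctcf* itself was 121 ± 0.838 (SD, n = 3) in controls. It was 97.3 ± 3.26 in heterozygotes and 81.4 ± 2.85 in homozygotes. Of 8 cardiomyocyte markers, all were detected, with a summed signal of 11890 to 14280 in controls, 14010 to 16450 in heterozygotes and 10680 to 13230 in homozygotes. The sum of 6 erythroid markers was 29020 to 41130, 23120 to 38820 and 50730 to 66810 in the same order, and all 6 were called higher in homozygotes against controls (limma), where 15.2% of all genes were called in either direction. The sum of 5 liver and endoderm markers was 918.9 in control 1 and 6.343 to 73.8 in the other libraries. Libraries are numbered by the ends of the column names.

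*Adprhl1* and *Def8* are shown with sequence because their promoters held the core of the CTCF site, searched on both strands as CCA, 2 bases of any kind, AG, 2 bases of any kind and GGC. Promoters of 250 bases before and 50 after the start were given by RefSeq on GRCm38.p6 for *Adprhl1*, *Epdr1* and *Def8*, the last with 2 starts. All matched NCBIM37, the build of the expression table, at 1 place each. Promoters of *Gsg1l* and *Hint1* were not analysed here. The core occurred in the promoter of *Adprhl1* and in 1 of the 2 of *Def8*, and in 2.43% of all 32851 promoters in the RefSeq set. A shorter run, AGGGGGC, occurred in 10.6% of promoters and in that of *Adprhl1*, where it is the last 7 bases of the core. The *Epdr1* promoter held neither. The *Adprhl1* sequence below is the 250 bases before its start on the minus strand of chromosome 8 (chr8:13254163-13254412), and the *Def8* sequence is 30 bases on the plus strand (chr8:125967117-125967146), inside the annotated gene, with the core 21 bases before the second start. Capitals mark the core, which in *Def8* lies on the opposite strand. These are matches of letters, and CTCF binding was not analysed here.
Adprhl1: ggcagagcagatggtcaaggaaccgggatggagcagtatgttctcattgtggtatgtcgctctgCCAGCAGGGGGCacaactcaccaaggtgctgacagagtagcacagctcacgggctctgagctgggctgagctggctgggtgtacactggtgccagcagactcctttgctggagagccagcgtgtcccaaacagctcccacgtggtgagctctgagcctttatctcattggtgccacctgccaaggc
Def8: ctcccggctGCCGCCTGCTGGctctccgct

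*Gsg1l* (ENSMUSG00000046182), on the minus strand of chromosome 7 (chr7:133021933-133225925), had the lowest level in homozygotes relative to controls of the 5 genes. Its signal was 16.1, 14.3 and 18.9 in controls 1 to 3, 13.0, 13.8 and 11.0 in heterozygotes and 3.07, 2.96 and 2.21 in homozygotes. The 3 genotypes did not overlap, and homozygotes lay far below the others. The homozygote mean was 16.7% of the control mean, a log2 fold change of -2.39 (standard error 0.17) on the log2(value + 0.5) scale. This was the fourth largest fall among 10045 genes with a mean of at least 10 in the higher group. The rank only describes values by which the gene was chosen. The libraries of homozygotes held 13, 17 and 24 reads of the gene, so that the size of the fall is less certain than its direction. On the recovered reads the fold change was -2.66 with edgeR and -2.67 with DESeq2, in fits to which 0.5 was not added.

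*Epdr1* (ENSMUSG00000002808), on the minus strand of chromosome 13 (chr13:19683578-19711699), followed the order control, heterozygote, homozygote too. Its signal was 15.4, 16.9 and 17.0 in controls, 11.2, 11.4 and 12.8 in heterozygotes and 6.47, 3.64 and 5.54 in homozygotes. No library of one genotype reached the range of another. The homozygote mean was 31.7% of the control mean (log2 fold change -1.60, standard error 0.17). Homozygotes varied most in this gene, with a highest library at 1.78 times the lowest.

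*Adprhl1* (ENSMUSG00000031448), on the minus strand of chromosome 8 (chr8:13235655-13254162), was at 29.7, 38.3 and 34.7 in controls, 37.0, 41.6 and 35.9 in heterozygotes and 12.1, 12.4 and 13.2 in homozygotes. Controls and heterozygotes overlapped, and homozygotes lay below both. The homozygote mean was 36.8% of that in controls (log2 fold change -1.40, standard error 0.10) and 33.0% of that in heterozygotes (-1.56). Per kilobase of exon its mean signal was 18.8 in controls and 6.92 in homozygotes.

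*Def8* (ENSMUSG00000001482), on the plus strand of chromosome 8 (chr8:125966886-125987170), had the smallest spread among homozygotes. Its signal was 48.2, 50.6 and 55.2 in controls, 59.7, 62.5 and 61.2 in heterozygotes and 28.5, 28.2 and 28.4 in homozygotes. Heterozygotes were the highest group and homozygotes the lowest, without overlap. The homozygote mean was 55.3% of that in controls (log2 fold change -0.84, standard error 0.07) and 46.4% of that in heterozygotes (-1.09).

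*Hint1* (ENSMUSG00000020267), on the plus strand of chromosome 11 (chr11:54679885-54684003), was the only one of the 5 that was higher in homozygotes. Its signal was 209.9, 210.7 and 198.3 in controls, 211.3, 214.5 and 212.1 in heterozygotes and 326.9, 340.8 and 358.9 in homozygotes. All 3 homozygote libraries lay above the other 6. The homozygote mean was 166% of that in controls (log2 fold change 0.73, standard error 0.05). The gene has a short exonic length of 872 bases. With the trend of the values with gene length removed, the fold change was 0.55, still higher in homozygotes. *Hint1* was also the most abundant of the 5, at a mean of 236.6 per kilobase in controls against 4.19 for *Gsg1l*, 6.90 for *Epdr1* and 12.9 for *Def8*.

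**Figure D1:**
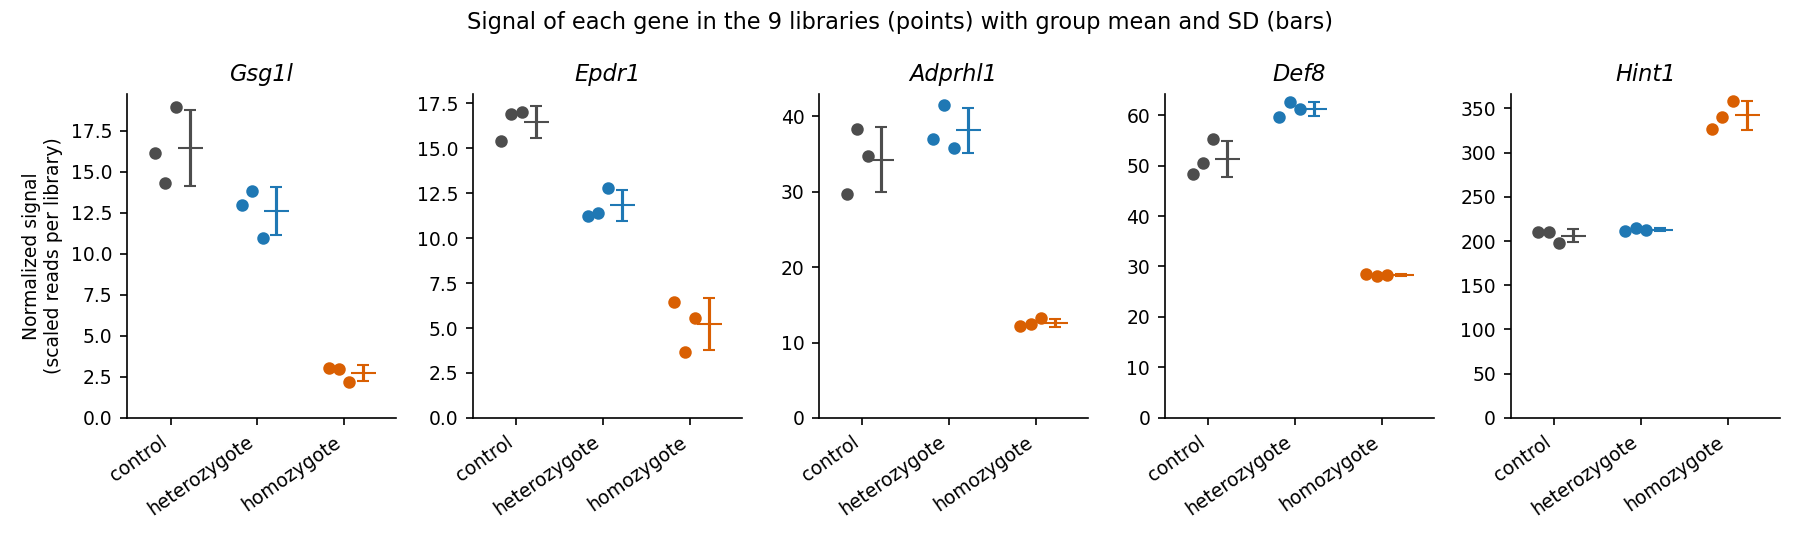
Normalized signal (vertical axis, scaled reads per library, starting at 0) of the 5 genes in 3 control, 3 heterozygote and 3 homozygote libraries, with points for libraries and bars for the group mean and SD. Homozygotes lie below controls in *Gsg1l*, *Epdr1*, *Adprhl1* and *Def8* and above them in *Hint1*, and heterozygotes lie below controls in the first 2 genes and above them in *Def8*.

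Homozygote and control libraries did not overlap in any of the 5 genes, which is part of how they were chosen, and 33.2% of all 14011 genes showed no overlap in either direction. No stretch elsewhere in the genome matched at least 50% of the exonic length of any of the 5 at an identity of at least 90%. The longest match for *Hint1* was 302 bases on chromosome 3, 34.6% of its exonic length, with an identity of 90.1%. *Gm20388*, an annotated gene that was not measured, overlaps *Def8* on the same strand, so that reads of the 2 genes may not be told apart, and no other annotated gene overlaps any of the 5.

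Cell type markers moved with these genes in part. The sum of the cardiomyocyte markers in homozygotes was on average 89.5% of that in controls, with 3 of 8 called lower (limma, against 15.2% of all genes called), and the 4 lower genes were at 16.7% to 55.3%. It was 77.7% of that in heterozygotes, with 5 of 8 called lower (against 13.6% of all genes called). Within the list, *Ryr2*, the calcium release channel of the sarcoplasmic reticulum, and *Nkx2-5*, a cardiac transcription factor, fell against controls (log2 fold changes -1.13 and -0.95). *Nkx2-5* was also lower in all heterozygote libraries than in all controls, at 75.6% of their mean (log2 fold change -0.40, limma adjusted p = 0.0974), and homozygotes were at -0.55 against heterozygotes. In the same list *Tnnt2*, cardiac troponin T, was at 0.13 and not called. The sum of the cushion mesenchyme markers was 182.8 to 212.2 in homozygotes and 238.2 to 266.3 in controls, a mean of 77.2% without overlap, with 1 of 5 called lower. The sum of the macrophage markers was at a mean of 62.9% of controls, with 1 of 4 called lower, *Lyz2* (log2 fold change -1.30). Heterozygotes were already at 66.2% of controls in this sum and at 63.6% in *Lyz2*, and the sums of homozygotes (14.76 to 31.34) and heterozygotes (22.95 to 24.22) overlapped. The sum of the endothelial and endocardial markers was at 89.3%, with 1 of 7 called higher and 1 lower. The sum of the epicardial markers was 132% of that in controls, with 3 of 5 called higher. The sum of the erythroid markers was 171% of that in controls and 189% of that in heterozygotes, and *Hint1* was at 166% and 161%. The highest erythroid sum was 1.42 times the lowest among controls and 1.68 times among heterozygotes. For *Hint1* these ratios were 1.06 and 1.02. The part of these cell types in the 5 genes was not tested.

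**Figure D2:**
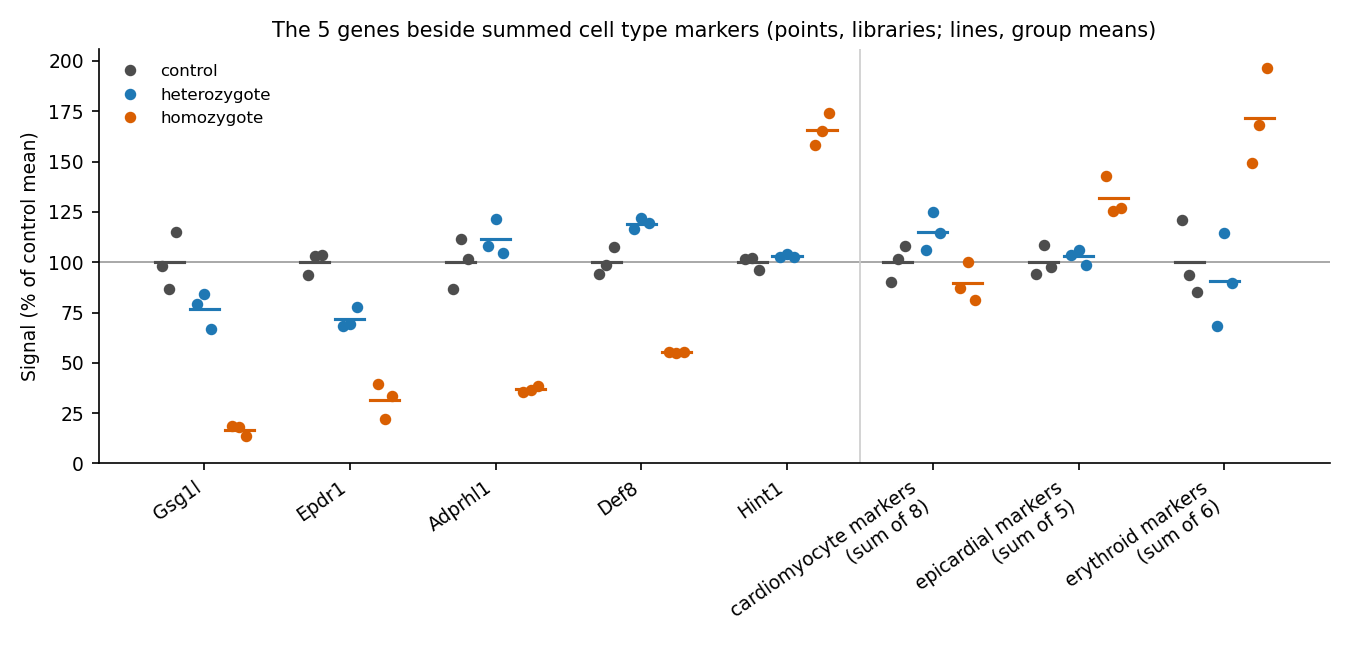
Signal of the 5 genes and summed signal of 3 marker lists in each library, as a percent of the control mean (vertical axis, starting at 0). Points are libraries and lines are group means. In homozygotes the 4 lower genes lie at mean values from 16.7% to 55.3%, the cardiomyocyte sum lies at 89.5%, *Hint1* lies at 166% and the erythroid sum at 171%.

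Heterozygotes were compared with controls, from which they differ by deletion of 1 *Ctcf* allele and by the Cre driver. The effects of the allele and of the driver cannot be told apart here. *Gsg1l* and *Epdr1* were lower in all heterozygote libraries than in all control libraries, at 76.5% and 71.8% of the control mean. *Def8* and *Hint1* were higher in all heterozygote libraries, at 119% and 103% of the control mean. *Adprhl1* overlapped, at 111%. In all, 4 of the 5 did not overlap. The share was 14.3% over all genes, and nothing is read from the difference, since both control and heterozygote libraries were among those by which the genes were chosen.

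The log2 fold change in heterozygotes, given as a description with no test, was -0.46 in *Epdr1* and -0.37 in *Gsg1l*, each with a standard error of 0.17. It was 0.25 in *Def8* (standard error 0.07), opposite in direction to homozygotes. It was 0.16 in *Adprhl1* (standard error 0.10) and 0.04 in *Hint1* (standard error 0.05).

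The 30 nearest measured genes showed whether the changes extended along the chromosome. Against controls, homozygotes differed in 5 of the 30 (16.7%), where 15.2% of all genes were called, and their median log2 fold change was 0.05 against 0.00 over all genes. In homozygotes against heterozygotes 6 were called (20%), where 13.6% of all genes were called. Neither share is far from that of all genes. In heterozygotes against controls 0 were called by limma, edgeR or DESeq2, where limma called 0.143% of all genes. Of the 30, 1 had an unadjusted p under 0.05 in limma, as did 1032 of all 14011 genes. For 1 gene alone, 3 libraries against 3 cannot give a p under 0.1 in a two-sided exact permutation test. The first count was 3 without control 1, control 3 or homozygote 2. The second was 2 or 3 without any 1 of the heterozygote libraries or without homozygote 2.

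**Figure D3:**
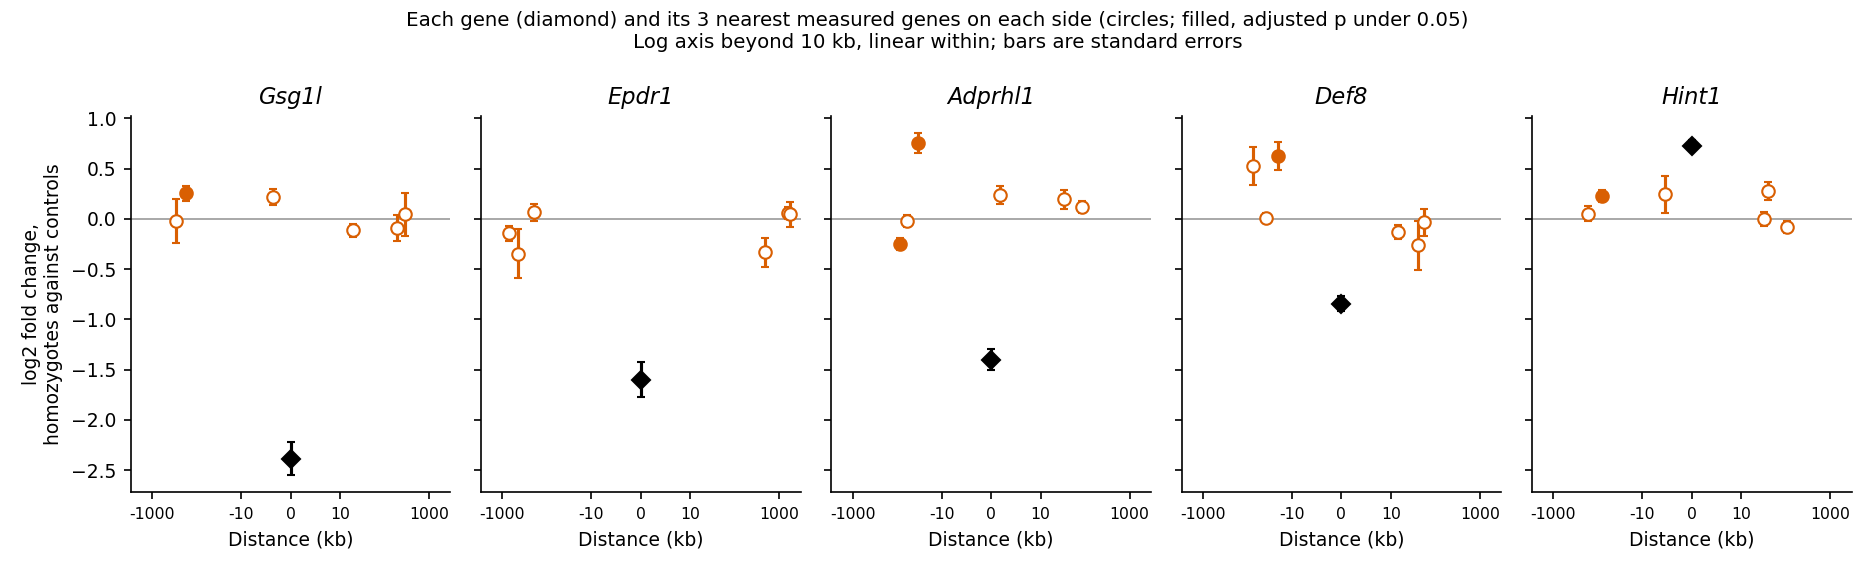
Log2 fold change in homozygotes against controls (vertical axis, bars are standard errors) of each of the 5 genes (diamonds) and its 3 nearest measured genes on each side (circles), by distance in kilobases between gene bodies (horizontal axis, logarithmic beyond 10 kb). The neighbours lie between -0.35 and 0.75, and filled circles mark the 5 called by limma, of which 4 are higher.

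*Adprhl1* had the neighbour with the largest change. *Grtp1*, which encodes a TBC-domain protein of the kind that acts on Rab GTPases, lies 35035 bp from *Adprhl1* on the same strand. Its signal was 16.9, 17.3 and 17.2 in controls, 16.0, 18.9 and 16.5 in heterozygotes and 29.9, 30.9 and 27.1 in homozygotes. It rose in homozygotes, without overlap, in the opposite direction to *Adprhl1* (log2 fold change 0.75, standard error 0.10, limma adjusted p = 0.000328). Against heterozygotes the change was 0.76 (limma adjusted p = 0.000438). Both calls held in all 19 alternative settings.

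On the other side *Dcun1d2*, a gene for a cullin neddylation protein, ends 1801 bp before the start of *Adprhl1* on the same strand and is the closest neighbour of any of the 5 genes. Its signal was 30.9, 33.2 and 27.1 in controls and 34.6, 35.3 and 38.0 in homozygotes. All homozygote libraries lay above the controls, but the difference was not called (log2 fold change 0.24, standard error 0.09, limma adjusted p = 0.0873). *Cul4a*, a cullin of ubiquitin ligases 87715 bp away, fell (log2 fold change -0.25, standard error 0.06, limma adjusted p = 0.0148). Its signal was 158.8 to 177 in controls and 131.6 to 146 in homozygotes, and the call was lost in 3 of 19 alternatives, among them the fit without control 3. *Lamp1*, *Tmco3* and *Tfdp1* were not called, with log2 fold changes from -0.02 to 0.19.

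Of the 3 measured genes before *Def8*, 1 was called against controls. This was *Tubb3*, the beta-tubulin used as a neuronal marker, which ends 20971 bp before *Def8*. Its signal was 16.0, 12.6 and 16.9 in controls, 18.9, 18.7 and 14.0 in heterozygotes and 21.7, 25.1 and 23.8 in homozygotes. It rose in homozygotes against controls (log2 fold change 0.63, standard error 0.14, limma adjusted p = 0.00989), a call that held in all 19 alternatives. Against heterozygotes it passed narrowly (0.45, limma adjusted p = 0.0485) and was lost in 12 of 19 alternatives, including 7 of 9 when a single library was dropped (every library except control 2 and control 3). The 2 neural markers with measured values, *Elavl3* and *Stmn2*, had a summed signal of 3.07 to 5.471 in controls and 4.143 to 5.904 in homozygotes.

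*Spire2*, an actin nucleator gene 73471 bp away on the same side, was called against heterozygotes (log2 fold change 0.67, standard error 0.19, limma adjusted p = 0.0348) and not against controls (0.53, limma adjusted p = 0.0808). Its signal in homozygotes was 10.1, 8.04 and 6.35, against 4.36 to 5.19 in heterozygotes. The call was lost in 7 of 19 alternatives, among them the fits without any 1 heterozygote library and without homozygote 1 or homozygote 2. *Tcf25*, between *Tubb3* and *Spire2*, was at a log2 fold change of 0.01 against controls (limma adjusted p = 0.953). On the other side *Afg3l1*, 14633 bp away, was not called (log2 fold change -0.13, limma adjusted p = 0.220).

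**Figure D4:**
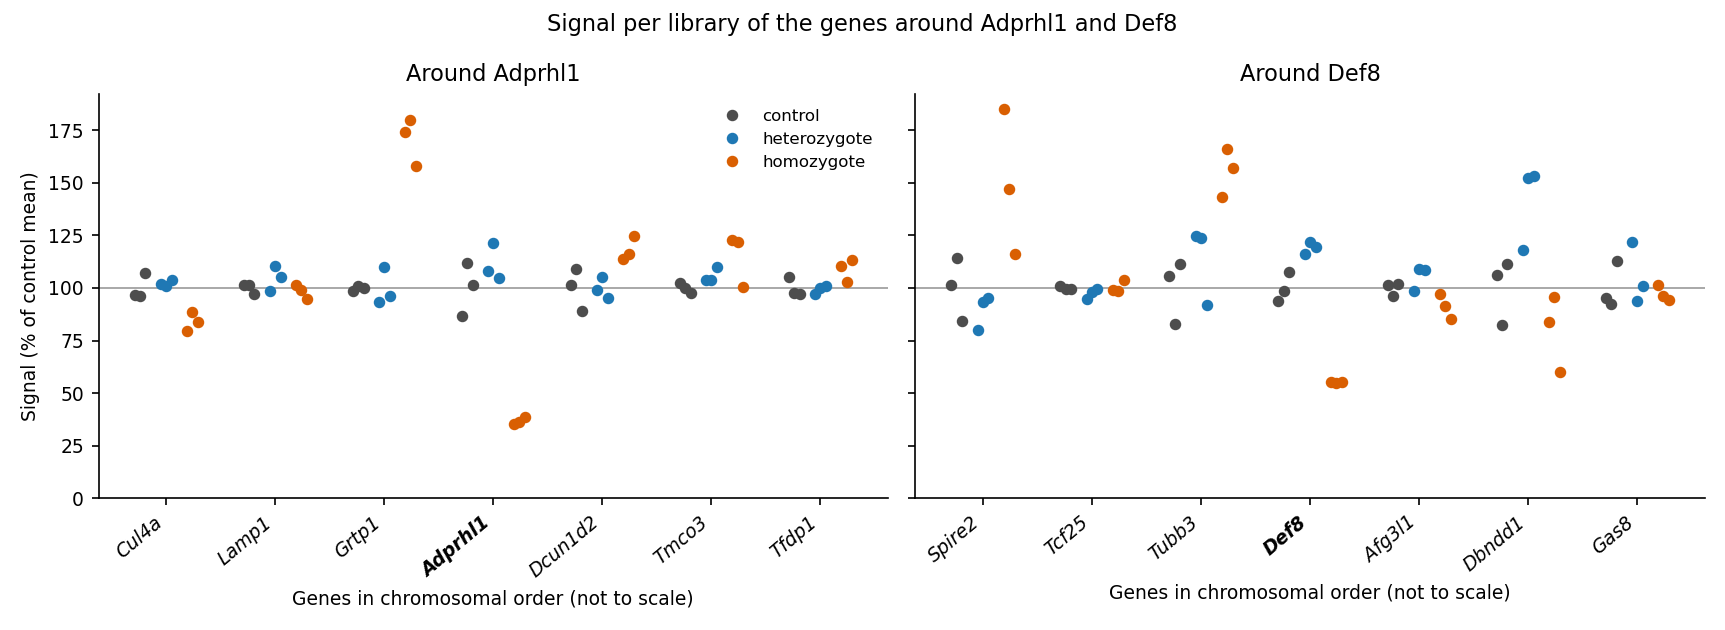
Signal in each library of *Adprhl1* and *Def8* and of the 3 measured genes on each side, in chromosomal order and not to scale, as a percent of the control mean (vertical axis, starting at 0). In homozygotes *Adprhl1* and *Def8* are low, at 36.8% and 55.3%, while *Grtp1* and *Tubb3* are high in all 3 libraries.

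*Gsg1l* lies tail to tail with *D430042O09Rik*, 3622 bp away. The signal of *D430042O09Rik* was 30.9, 29.7 and 30.9 in controls, 29.6, 27.4 and 29.6 in heterozygotes and 36.9, 35.8 and 33.9 in homozygotes. It was higher in homozygotes in every library and was called against heterozygotes (log2 fold change 0.29, standard error 0.08, limma adjusted p = 0.0231), but not against controls (0.22, limma adjusted p = 0.0770). The first call was lost in 4 of 19 alternatives, among them the fits without heterozygote 2, homozygote 1 or homozygote 2. Against controls the gene was called in 1 of 19.

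*Gtf3c1*, a subunit gene of the RNA polymerase III factor TFIIIC on the same side of *Gsg1l* at 170639 bp, rose by a similar amount (log2 fold change 0.25, standard error 0.07, limma adjusted p = 0.0313). Its lowest homozygote library was at 166.7 and its highest control library at 163.4. The call was lost in 7 of 19 alternatives, among them the fits without control 1, control 2, homozygote 1 or homozygote 2. *Xpo6*, an exportin gene 19304 bp upstream of *Gsg1l*, was not called (log2 fold change -0.11, limma adjusted p = 0.258).

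*Epdr1* sits in a sparse region, with its nearest measured genes 195957 bp (*Stard3nl*) and 470789 bp (*Elmo1*) away. Between it and *Elmo1* lie 5 annotated genes without a measured value. Of its 6 neighbours, up to 1742997 bp away, 0 were called in either comparison of homozygotes by limma, edgeR or DESeq2. Limma called 15.2% of all genes against controls and 13.6% against heterozygotes, and nothing is read from 0 of 6. Only *Elmo1* had an unadjusted p under 0.05 in limma against controls, as did 4145 of all 14011 genes. *Elmo1*, a regulator of Rac signalling, was at 15.0, 13.8 and 17.0 in controls, 10.7 to 12.6 in heterozygotes and 9.65, 13.1 and 13.5 in homozygotes. Both mutant groups lay below all controls. The log2 fold change was -0.36 in heterozygotes (limma adjusted p = 0.617) and -0.33 in homozygotes (limma adjusted p = 0.142). *Stard3nl* was at 0.06 in homozygotes (limma adjusted p = 0.673).

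*Hint1* starts 5467 bp from *Lyrm7*, which is transcribed away from it. *Lyrm7*, a gene for a mitochondrial assembly factor, was at 4.95, 8.08 and 5.19 in controls and 7.15, 7.53 and 6.71 in homozygotes. The groups overlapped, and the log2 fold change was 0.25 (standard error 0.19, limma adjusted p = 0.415). *Gpx3*, a secreted glutathione peroxidase gene 31952 bp after *Hint1*, was at a mean of 547 in controls and 548 in homozygotes (log2 fold change 0.00, standard error 0.07). *Cdc42se2*, 78708 bp away beyond *Lyrm7*, rose from a mean of 70.2 in controls to 82.6 in homozygotes (log2 fold change 0.23, standard error 0.06, limma adjusted p = 0.0200). That call was lost in 5 of 19 alternatives, among them the fits without control 1, control 3 or homozygote 2.

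Related genes were listed by family or known partner, and 35 of the 48 names had a measured value. The 2 names listed with *Epdr1* had none. Against controls, homozygotes differed in 5 of the 35 (14.3%, against 15.2% of all genes) and their median log2 fold change was -0.06. Against heterozygotes 3 were called (8.57%, against 13.6%). Heterozygotes differed from controls in 0 by limma, edgeR or DESeq2, where limma called 0.143% of all genes. They differed in 1 at an unadjusted p under 0.05 in limma, and in 1032 of all 14011 genes. The first count was 1 to 3 without any control library, without heterozygote 1 or 2, or without homozygote 2 or 3. The second was 1 without heterozygote 2.

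Of the 9 enzymes of ADP-ribose turnover listed with *Adprhl1*, 2 rose, 1 fell and 6 were not called (3 of 9 called, against 15.2% of all genes, and 2 by edgeR or DESeq2). *Macrod2*, a macrodomain enzyme that removes mono-ADP-ribose, was at 7.04, 9.40 and 7.09 in controls, 7.70, 8.64 and 7.73 in heterozygotes and 14.0, 15.8 and 14.2 in homozygotes. It rose without overlap (log2 fold change 0.87, standard error 0.14, limma adjusted p = 0.00171), and the call held in all 19 alternatives. *Adprhl2*, which removes ADP-ribose from serine, was at 22.5, 25.2 and 23.9 in controls and 19.2, 13.1 and 19.0 in homozygotes. It fell (log2 fold change -0.49, standard error 0.14, limma adjusted p = 0.0280), and the call was lost in 4 of 19 alternatives, among them the fits without control 2, control 3 or homozygote 2. *Parp3*, a polymerase of low signal here (means of 0.915 in controls and 2.29 in homozygotes), was called narrowly (0.95, limma adjusted p = 0.0496) and lost the call in 14 of 18 alternatives, among them every fit without 1 library except that without homozygote 3. *Adprh*, the arginine-directed founder of the family, was at -0.07 on the log2 scale of the fold change (limma adjusted p = 0.478).

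Of 7 relatives and partners measured for *Def8*, 2 fell and 5 were not called (against 15.2% of all genes called), and DESeq2 called 1. *Rubcn*, which encodes the autophagy regulator Rubicon, was at 52.4, 55.3 and 56.4 in controls and 49.4, 40.2 and 43.3 in homozygotes (log2 fold change -0.31, standard error 0.08, limma adjusted p = 0.0241). *Plekhm2*, a partner in lysosome transport, fell too (log2 fold change -0.33, limma adjusted p = 0.0430), a call lost in 12 of 19 alternatives and kept with 1 library left out only without heterozygote 3 or homozygote 1. *Rubcn*, listed as 1700021K19Rik in the annotation, lost its call in 6 of 19, among them the fits without control 2, control 3, homozygote 2 or homozygote 3. *Def6* was not called (log2 fold change -0.11, limma adjusted p = 0.783).

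Among 8 measured genes of AMPA receptors and auxiliary proteins listed with *Gsg1l*, 0 were called against controls by limma, edgeR or DESeq2. Limma called 15.2% of all genes in this comparison of homozygotes, and nothing is read from 0 of 8. Of the 8, 1 had an unadjusted p under 0.05 in limma, as did 4145 of all 14011 genes. *Gsg1*, the closest relative, was near the lower limit of detection, with a mean of 0.849 in controls and 1.27 in homozygotes (log2 fold change 0.48, limma adjusted p = 0.510). Among 11 histidine triad proteins and partners listed with *Hint1*, 0 were called by limma, edgeR or DESeq2, against the same 15.2% of all genes. Of the 11, 1 had an unadjusted p under 0.05 in limma, against the same 4145 of 14011. Nothing is read from these counts either. The log2 fold change of *Hint2* was 0.14, with a limma adjusted p of 0.508, and that of *Hint3* was 0.25, with a limma adjusted p of 0.297.

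The genes whose pattern was most like each of the 5 were found by Pearson's r of the log2 values over the 9 libraries, among 9846 genes with a mean of at least 10. The libraries share 3 genotypes, and r mostly follows the genotype means. For *Gsg1l* these included *Fgl2* (r = 0.990) and *Rasal2* (0.989). For *Epdr1* they were *Hs1bp3* (0.979), *Zbtb34* (0.974) and *Mdp1* (0.970). *Adprhl1* was most like *Cited1* (0.994), *Alg5* (0.992) and *Got2* (0.992). *Def8* was most like *Got2* (0.994), *Mtus1* (0.992) and *Gja1* (0.986), the gene of the gap junction protein connexin 43. *Hint1* was most like *Fgf13* (0.989), *Mpp6* (0.988) and *Ccdc72* (0.985).

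The number of genes with a similar pattern varied between the 5. Replicate spread differed too, with a highest homozygote library at 1.78 times the lowest in *Epdr1* and 1.1 times in *Hint1*. Its part in these numbers was not tested. Opposite patterns, such as *Gsg1l* and *Hint1* (r = -0.99), are not counted. Over the same 9846 genes, r was over 0.95 for 14 genes with *Epdr1*, 56 with *Def8*, 67 with *Adprhl1*, 88 with *Gsg1l* and 110 with *Hint1*. *Fgf13*, a fibroblast growth factor homologue that binds sodium channels, had means of 26.2, 29.3 and 78.3 in controls, heterozygotes and homozygotes. *Gja1* had means of 157, 185 and 75.8 in the same order, highest in heterozygotes as in *Def8*.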

How the data were processed

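RNA from pools of 6 E10.5 hearts was sequenced on a GAIIx instrument. The submitters' processing notes name CASAVA 1.8, cutadapt 1.6.1, RSEM 1.20, Bowtie2 0.12.7, NCBIM37 and limma. The authors deposited 1 table of normalized signal values for 14011 genes, all at 1 or more in at least 3 libraries. A value equals the reads of the gene plus 0.5, multiplied by 1 factor per library (100% of values whole within 0.01 reads), so that the values had already been scaled. Columns named Het were taken as controls and columns named DH as heterozygotes, since the group averages in the study's gene lists equalled theirs within 0.01% (of 1 for values under 1) in 1998 of 1998 and 787 of 787 genes, against 3 and 1 with the columns exchanged. The column names alone read otherwise.

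Values were tested as log2(value + 0.5) with limma 3.58.1 (R 4.3.3), with 9 libraries in 3 groups, a mean-variance trend, no filter and Benjamini-Hochberg adjustment over all genes. A gene counted as called at an adjusted p under 0.05. A fold change on this scale understates that of low genes. Total reads set the precision and are given with the results. The labels do not say that pools came from separate litters, and p-values measure the spread between pools. Library pairs of a genotype differed by more than counting noise (chi-square per degree of freedom 3.22 to 7.15).

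Gene positions and exonic lengths came from GENCODE M1 on NCBIM37. Promoters came from RefSeq (GRCm38.p6). Copies were searched with BLAST+ 2.17.0, and Python 3.11.15 prepared the tables. Genes named are the 5, neighbours called or nearest on their side, relatives called or closest, the 3 genes of highest r for each of the 5 (1 of them is not reported here), and *Ctcf*. *Ryr2*, *Nkx2-5*, *Lyz2*, *Tnnt2*, *Tcf25*, *Elavl3*, *Stmn2*, *Gm20388*, *Lamp1*, *Tmco3* and *Tfdp1* were named with their values already known. The 5 genes and all lists were chosen with earlier results of these data known. Alternatives were other pseudocounts, a filter on means under 5, fits of 2 groups, quantile normalization, limma without the trend, edgeR 4.0.16 and DESeq2 1.42.0 on the recovered reads, removal of the length trend, a replicate block, each library left out, and other neighbour rules. On the recovered reads edgeR called 2212, 1903 and 21 genes and limma 2133, 1901 and 20, where the first number compares homozygotes with controls, the second compares them with heterozygotes and the third compares heterozygotes with controls. The method was tested on simulated data.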

Additional observations from a re-analysis of the deposited data

How the results depend on the processing

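The 5 genes kept their direction in homozygotes against controls in all 19 alternatives. The log2 fold change moved by more than the spread between replicates in *Gsg1l*, to -2.66 with edgeR and -2.67 with DESeq2, and in *Hint1*, to 0.55 with the length trend removed. In heterozygotes against controls 0 of the 30 neighbours were called under any alternative. Only 10 to 40 of all genes were called in that comparison across these settings, so the 0 says little about the neighbours.

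Of the 30 neighbours 5 were called in homozygotes against controls. The number was 2 with limma without the trend and 6 with the length trend removed. It was 8 of 50 with 5 neighbours on each side and 2 of 10 with 1, and 3 to 5 with 1 library left out. Of the 6 called against heterozygotes, 3 remained in number with DESeq2 and 3 of 10 with 1 neighbour on each side, and 2 to 6 with 1 library left out. Related genes called against controls numbered 3 with only the 2 groups compared, 1 with limma without the trend, 3 with DESeq2, 3 with the length trend removed and 1 to 5 with 1 library left out. Against heterozygotes they numbered 1 with limma without the trend and 1 to 4 with 1 library left out. The cause of these losses was not tested. Fewer libraries in a fit also leave fewer degrees of freedom. Same-numbered libraries did not deviate together (r from -0.14 to 0.13), and r was -0.13 to 0.18 between differently numbered ones. The numbers thus showed no sign of pairing, and whether libraries shared litters or batches was not tested. With a replicate block by number, 4 neighbours were called in each comparison of homozygotes, 4 relatives against controls and 3 against heterozygotes. Over all genes, limma without the trend called 1196, 1063 and 10 genes in the order used for edgeR above, and DESeq2 called 40 in heterozygotes against controls. With 1 library left out the numbers were 1049 to 2084, 1023 to 1859 and 13 to 25, lowest without control 3, homozygote 3 and heterozygote 3 in turn. The first was also 1267 without homozygote 3, and the second 1257 without heterozygote 2 and 1223 without heterozygote 3. Values of *Gsg1l* and *Parp3* rest on few reads.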
